A study of Zea mays with 10 samples.

Results

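In leaves of field-grown maize, gst10 (LOC541828), a glutathione transferase gene, and PRX2 (LOC542571), a class III peroxidase gene, stood on 6 elements of a 2-colour array, of 19200 elements in all. An element counted as a member if the platform annotation gave it exactly 1 gene and that gene was LOC541828 or LOC542571, names that a RefSeq gene table pairs with gst10 and with PRX2 (other synonyms PER2, pmPOX2 and pox2). The rule found 4 elements for gst10, numbered 8057, 10749, 11390 and 12403, and 2 for PRX2, numbered 3929 and 4264. In the whole table, 1800 elements carried exactly 1 gene and together held 583 genes. Both genes were chosen by their weedy against control ratios in these same arrays, so those ratios are described below without a test.

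Glutathione transferases join the tripeptide glutathione to reactive or foreign molecules, which are then moved into the vacuole, and in maize they are best known for inactivating herbicides. Class III peroxidases are secreted haem enzymes that use hydrogen peroxide to oxidise phenolic compounds, and act in lignin formation, wall stiffening and defence. PRX2, as its synonym pmPOX2 records, belongs to the peroxidases described from plasma membranes of maize roots.

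The study grew maize in 8 field plots without added water or fertiliser, of which 4 weedy plots were sown with velvetleaf, a broadleaf weed, and 4 control plots were cleared of most weeds by hand. Leaf from 4 plants of a plot was pooled, and 1 weedy and 1 control pool, labelled with Cy5 and Cy3, were hybridised together on each of 10 arrays. Weedy RNA was in Cy5 on 5 arrays and control RNA was in Cy5 on the other 5, and arrays are named here by the treatment in Cy5 and a number within that orientation. The labels name no maize line, plant age or stage. Weedy plot 4 was labelled with Cy5 alone. A pool served 2 to 4 arrays, so arrays that share a pool are not independent, and in pooled leaf fewer cells of a type and less RNA per cell cannot be told apart. The table held ratios and no signal, so the tissue could not be checked against leaf markers and no level of one element can be set against another.

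Between 9965 and 17383 elements had a value on an array. The array with the fewest, array 5 with control RNA in Cy5, paired weedy plot 3 with control plot 4. It gave no value for elements 8057, 10749, 11390 and 4264, and it contributed only elements 12403 and 3929. Element 10749 also lacked values on array 3 with weedy RNA in Cy5 and on array 2 with control RNA in Cy5, both of which hold control plot 3. With 3 values left in that orientation, under the minimum of 4, it was not tested.

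Signs below rest on reading each deposited value as the log2 ratio of Cy5 over Cy3, which the labels do not state. Each array was centred on its median, and a turned ratio is that value with its sign reversed on the arrays with control RNA in Cy5, so that above 0 means weedy above control. If the values run Cy3 over Cy5, all signs are the opposite. If the submitters had already turned every array to weedy over control, the treatment term and the dye term of the fit trade places, and values for that reading are given where it matters.

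On the Cy5 over Cy3 reading, the gst10 signal was lower in weedy leaf at 1 of its 4 elements, element 8057, and stayed close to 0 at the others. Element 8057 gave turned log2 ratios of -0.78, -0.50, -0.44, -0.76 and -0.62 on arrays 1 to 5 with weedy RNA in Cy5. On arrays 1 to 4 with control RNA in Cy5 it gave -1.11, -0.39, 0.07 and -0.45. It was therefore below 0 on 8 of 9 arrays, and the exception was array 3 with control RNA in Cy5, which set weedy plot 2 against control plot 4. Before turning, all 5 arrays with weedy RNA in Cy5 lay below the 4 arrays with control RNA in Cy5, the closest pair being 0.37 apart. Across all tested elements, 4.93% had orientations that did not overlap in this way, and since this contrast chose the gene, nothing is read from it. The fitted treatment ratio of element 8057 was -0.54 (SE 0.11, n = 9 arrays), which is 0.686-fold if the values are log2.

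The other gst10 elements did not share that size. Element 11390 ranged from -0.30 to 0.14 in turned ratio with a median of -0.12, and was below 0 on 7 of 9 arrays, with a treatment ratio of -0.10 (SE 0.08). Element 12403 ranged from -0.36 to 0.28 with a median of 0.04, above 0 on 6 of 10 arrays, with a treatment ratio of 0.01 (SE 0.09). Element 10749 ranged from -0.28 to 0.31 over 7 arrays, with 3 above 0 and 4 below. Both orientations of elements 10749, 11390 and 12403 overlapped. Averaged over its 3 tested elements, gst10 stood at -0.18 (SE 0.07), so the gene value rests largely on element 8057. Without weedy plot 1, whose 3 arrays include the most negative value of element 8057, the gene value was -0.09 and element 8057 stood at -0.39.

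PRX2 showed the opposite sign, again at 1 element of its pair. Element 4264 gave turned log2 ratios of 0.36, 0.45, 0.58, 0.72 and 1.09 on arrays 1 to 5 with weedy RNA in Cy5. On arrays 1 to 4 with control RNA in Cy5 it gave 0.54, 0.18, -0.13 and 0.34. It was above 0 on 8 of 9 arrays, and the exception was once more the array of weedy plot 2 against control plot 4. Before turning, the orientations did not overlap and were 0.24 apart at the closest, where 4.93% of all tested elements did not overlap. This contrast chose the gene, so nothing is read from that gap. The treatment ratio of element 4264 was 0.44 (SE 0.10, n = 9 arrays), or 1.35-fold if the values are log2. Element 3929 ranged from -0.22 to 0.21, was above 0 on 4 of 10 arrays, overlapped between orientations and had a treatment ratio of 0.02 (SE 0.08). The mean of both elements, the PRX2 gene value, was 0.22 (SE 0.06).

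**Figure D1:**
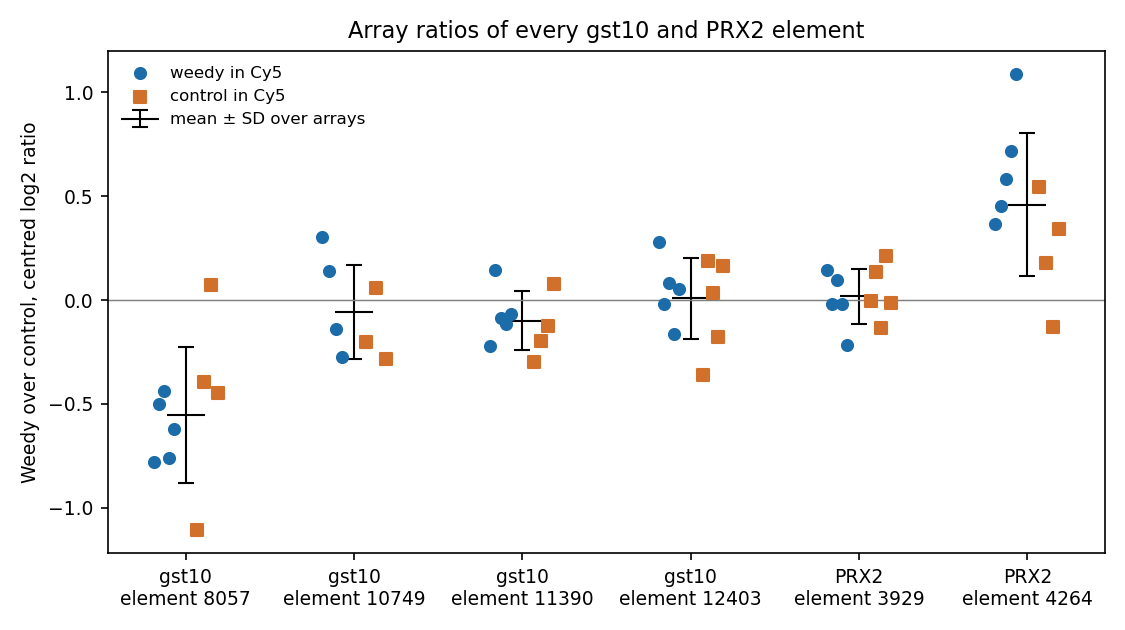
Turned, centred log2 ratio (weedy over control on the Cy5 over Cy3 reading) of each gst10 and PRX2 element on each array, with circles for weedy RNA in Cy5, squares for control RNA in Cy5 and bars for the mean ± SD over arrays. Element 8057 lay below 0 on 8 of 9 arrays and element 4264 above 0 on 8 of 9, while the remaining 4 elements scattered around 0.

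In size, 85 of 16201 tested elements (0.525%) had a larger treatment ratio than element 8057 and 263 (1.62%) a larger one than element 4264, against a median size of 0.104. At an adjusted p under 0.05, 0.0123% of elements passed for the treatment term (2 of 16201), given here as background only, since this contrast chose the genes. The residual SD was 0.33 for element 8057 and 0.28 for element 4264, at the 57.7th and 40.9th percentile of all tested elements. The quiet elements of the same genes had smaller residual SDs, 0.14 for 11390, 0.20 for 12403 and 0.13 for 3929, all within the lowest 13.8% of elements. Whether the elements of a gene detect the same transcript was not tested.

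The rows around each member in the deposited table were also examined, a choice made after the values were seen. This contrast chose the genes, so ratios beyond those of the neighbouring rows are described only. Whether row order follows position on the array was not tested. The 20 tested elements within 10 rows of element 8057 had a median treatment ratio of -0.06 and none was as low, the lowest being -0.24. The 17 around element 4264 had a median of -0.02 and reached at most 0.41. With the medians of blocks of 400 rows removed, the ratios were -0.45 for element 8057 and 0.43 for element 4264. Around element 3929 the median was 0.11, above its own ratio of 0.02, and around element 11390 it was -0.13, beside its own -0.10.

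Of the 9 arrays with a value for both elements, 8 had element 8057 below 0 and element 4264 above 0. That count follows from the separate counts, which share the same exception, and this contrast chose the genes. The turned ratios of elements 8057 and 4264 correlated at -0.60 over these 9 arrays, which share pools. Before turning they correlated at -0.90, where the orientation itself separates the arrays. Within gst10, elements 10749 and 12403 correlated at 0.70 over 7 arrays, while element 8057 correlated at 0.39 with 11390, at 0.41 with 12403 and at 0.18 with 10749. The PRX2 elements correlated at -0.34 over 9 arrays. The elements of a gene thus ranged from correlated to anticorrelated over the arrays.

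The dye term, the part of a ratio that keeps its sign when the labels are swapped, was not used to choose the genes and was tested over all elements with limma. It was -0.08 (SE 0.11, adjusted p = 0.824) for element 8057, 0.03 (SE 0.08, adjusted p = 0.909) for 11390 and 0.04 (SE 0.08, adjusted p = 0.896) for 12403. For PRX2 it was -0.02 (SE 0.07, adjusted p = 0.944) at element 3929 and 0.20 (SE 0.10, adjusted p = 0.543) at element 4264. None of the 5 tested members passed, where 0% of all elements did and 9.49% had an unadjusted p under 0.05. Element 4264 had the largest of these terms. Its turned ratio averaged 0.64 ± 0.28 (SD, n = 5) with weedy RNA in Cy5 and 0.23 ± 0.28 (SD, n = 4) with control RNA in Cy5. For element 8057 the corresponding means were -0.62 ± 0.15 (SD, n = 5) and -0.47 ± 0.48 (SD, n = 4), with a wider spread with control RNA in Cy5. Both means belong to the contrast that chose the gene, so nothing is read from their sign. On the reading that arrays had been turned before deposit, the treatment ratio was -0.07 for element 8057 and 0.20 for element 4264. The dye terms were then -0.54 and 0.44. On that reading they are the contrast that chose the genes under another name, so they are given without a test. The sizes given above for weedy against control leaf therefore hold for the first reading alone.

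The 10 arrays link all 8 pools, so a level for each pool, relative to the mean of the 8, could be fitted with a dye term. For element 8057 the levels of weedy plots 1 to 4 were -0.66 (SE 0.17), -0.01 (SE 0.20), 0.13 (SE 0.22) and -0.52 (SE 0.25). Control plots 1 to 4 stood at 0.67 (SE 0.22), 0.54 (SE 0.20), -0.17 (SE 0.22) and 0.01 (SE 0.16). Weedy plots 1 and 4 were the lowest pools and control plots 1 and 2 the highest. The other pools of both treatments overlapped, with weedy plots 2 and 3 above control plot 3 and within their errors of control plot 4. The SD of the 4 fitted levels was 0.38 among weedy and 0.41 among control pools. It includes the error of each level, so it does not measure the spread of plots alone. The means of the treatments differed by 0.53 with 1 value per plot.

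Element 4264 showed much the same arrangement of plots with the sign reversed. Weedy plots 1 to 4 stood at 0.39 (SE 0.17), -0.23 (SE 0.20), 0.02 (SE 0.22) and 0.67 (SE 0.25). Control plots 1 to 4 stood at -0.46 (SE 0.22), -0.29 (SE 0.21), 0.15 (SE 0.22) and -0.24 (SE 0.16). Weedy plots 4 and 1 were the highest pools here and control plot 1 the lowest, while weedy plot 2 lay among the controls. Weedy plot 4 was labelled with Cy5 alone, so at both elements its level depends on the fitted dye term. The SD of the fitted levels was 0.40 among weedy and 0.26 among control pools, and again includes the error of each level. The means of the treatments differed by 0.42. These fits rest on 9 arrays with 8 fitted terms, which leaves 1 degree of freedom per element, and the SEs borrow spread from all elements.

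**Figure D2:**
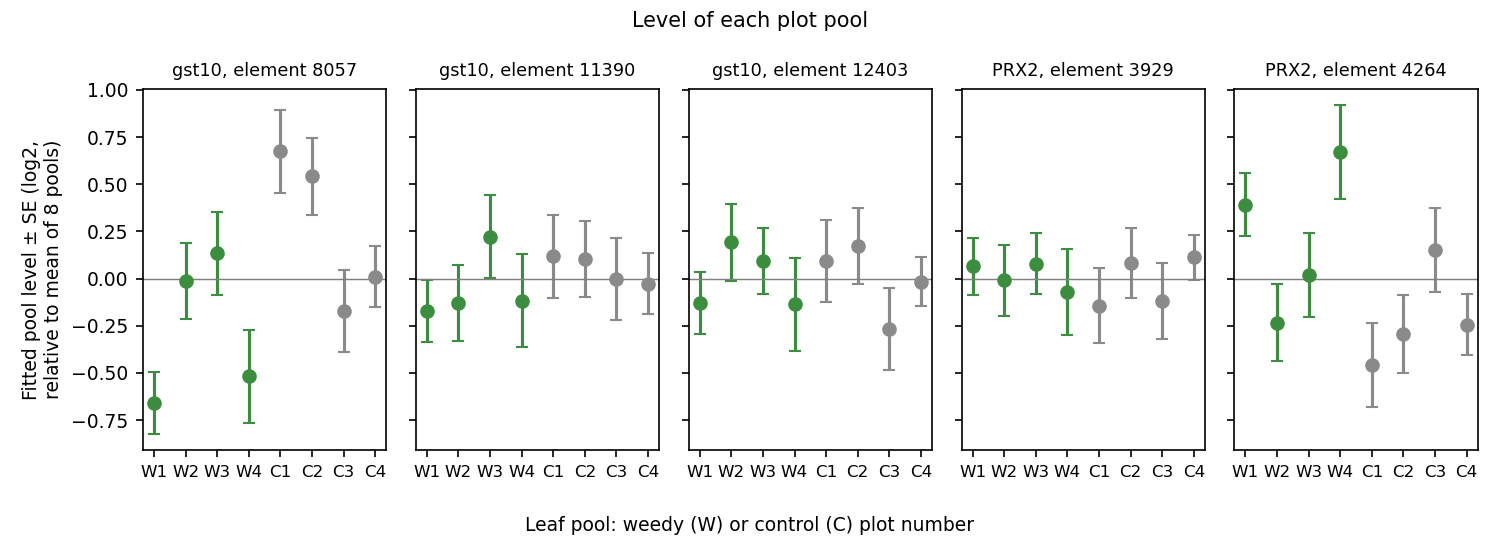
Fitted level of each leaf pool ± SE, on a log2 scale relative to the mean of the 8 pools, for the 5 elements that allow the fit, with weedy plots W1 to W4 and control plots C1 to C4. Weedy plots 1 and 4 were lowest for element 8057 and highest for element 4264, and the levels of elements 11390, 12403 and 3929 stayed between -0.27 and 0.22. Weedy plot 4 was in Cy5 alone, so its level depends on the fitted dye term.

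Whether plots of the same treatment differed was tested on the elements with a value on all 10 arrays, which included 1 element of each gene. For gst10 element 12403 the moderated F over 6 contrasts was 0.469 (adjusted p = 0.947, limma), with pool levels from -0.27 for control plot 3 to 0.19 for weedy plot 2. For PRX2 element 3929 it was 0.361 (adjusted p = 0.968, limma), with levels from -0.14 for control plot 1 to 0.11 for control plot 4. Neither passed, and 0% of the 9486 elements tested did, with 5.38% at an unadjusted p under 0.05. The test had 2 residual degrees of freedom per element. Elements 8057 and 4264 could not enter it for want of array 5 with control RNA in Cy5.

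The 13 other glutathione transferase genes of the list could be set beside gst10, and none passed at an adjusted p under 0.05 in limma, where 0% of the 540 genes tested passed and 64 had an unadjusted p under 0.05. Their gene values were positive for 7 and negative for 6, with a median of 0.0028 against 0.02 over all genes. The genes of smallest p lay on both sides. gst18 (LOC541833) stood at 0.31 (SE 0.10, adjusted p = 0.287) and gst1 (LOC542366), an enzyme known for conjugating herbicides, at 0.10 (SE 0.05, adjusted p = 0.495). gst16 (LOC542490) stood at -0.40 (SE 0.16, adjusted p = 0.418) and gst11 (LOC541829) at -0.23 (SE 0.14, adjusted p = 0.540). The widest array values were those of gst16, from -1.81 to 0.30 over 8 arrays, and gst18 was above 0 on 8 of 9 arrays. In2-1 (LOC542388), a transferase first found through its response to herbicide safeners, stood at 0.09 (SE 0.08) and gst31 (LOC541842) at 0.14 (SE 0.09), and neither passed. The gst10 gene value lay among these values, with gst16 and gst11 below it.

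Few other peroxidases carried a named element. apx2 (LOC542476), an ascorbate peroxidase that removes hydrogen peroxide inside the cell, stood at 0.19 (SE 0.07, adjusted p = 0.389) over 5 elements and was above 0 on 9 of 10 arrays. PER42, a class III peroxidase like PRX2, stood at -0.01 (SE 0.13, adjusted p = 0.973), with 4 of 9 arrays above 0 and values from -0.73 to 0.87. PER1 (LOC100037830) had no tested element. Of the 2 tested, 0 passed, and the difference between PRX2 and PER42 was not tested.

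A list of other oxidative stress genes held catalases, superoxide dismutases, a glutathione synthetase, a thioredoxin and aldehyde dehydrogenases, the last of which oxidise aldehydes. Of its 10 tested genes 0 passed and 8 were positive, with a median of 0.04, where 309 of all 540 genes were positive with a median of 0.02. Among them the catalase cat1 (LOC542369) stood at 0.10 (SE 0.09), the aldehyde dehydrogenase aldh5 (LOC541914) at 0.15 (SE 0.11), the manganese superoxide dismutase sod3 (LOC542764) at 0.06 (SE 0.07) and the copper and zinc superoxide dismutase sod2 (LOC542260) at 0.05 (SE 0.07). The second catalase, CAT3 (LOC542370), stood at -0.02 (SE 0.13). gsh2 (LOC542055), which makes glutathione, stood at 0.07 (SE 0.18) with values from -1.22 to 0.66. MRP2 (LOC542680), an ABC transporter of the family that moves glutathione conjugates, stood at -0.14 (SE 0.07, adjusted p = 0.439) and was above 0 on 3 of 10 arrays. MRP1 (LOC100037760) had no tested element.

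Class III peroxidases couple the products of the phenylpropanoid pathway, and 3 of its enzymes were measured. PAL1 (LOC542258), the entry enzyme of the pathway, stood at -0.10 (SE 0.10), 4CL (LOC542166), which activates the acids, at -0.12 (SE 0.10), and BM1 (LOC542663), a cinnamyl alcohol dehydrogenase of the last step to lignin units, at -0.03 (SE 0.12). None of these 3 passed, all were below 0, and PRX2 stood at 0.22 beside them. Over all lists, 0 of 29 tested genes passed, 16 were positive and 13 negative. An unadjusted p under 0.05 was reached by 3 (gst18, gst16 and apx2), where 64 of all 540 genes (11.9%) reached it. The dye terms were 0.14 for gst18, 0.39 for gst16, -0.16 for apx2 and -0.10 for gst1. On the reading of arrays turned before deposit gst18 thus keeps its sign, while gst16, apx2 and gst1 have the other sign. The signs given for the listed genes hold for the first reading alone. Of the genes named from the lists, In2-1, CAT3 and gsh2 were picked after their values were seen.

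**Figure D3:**
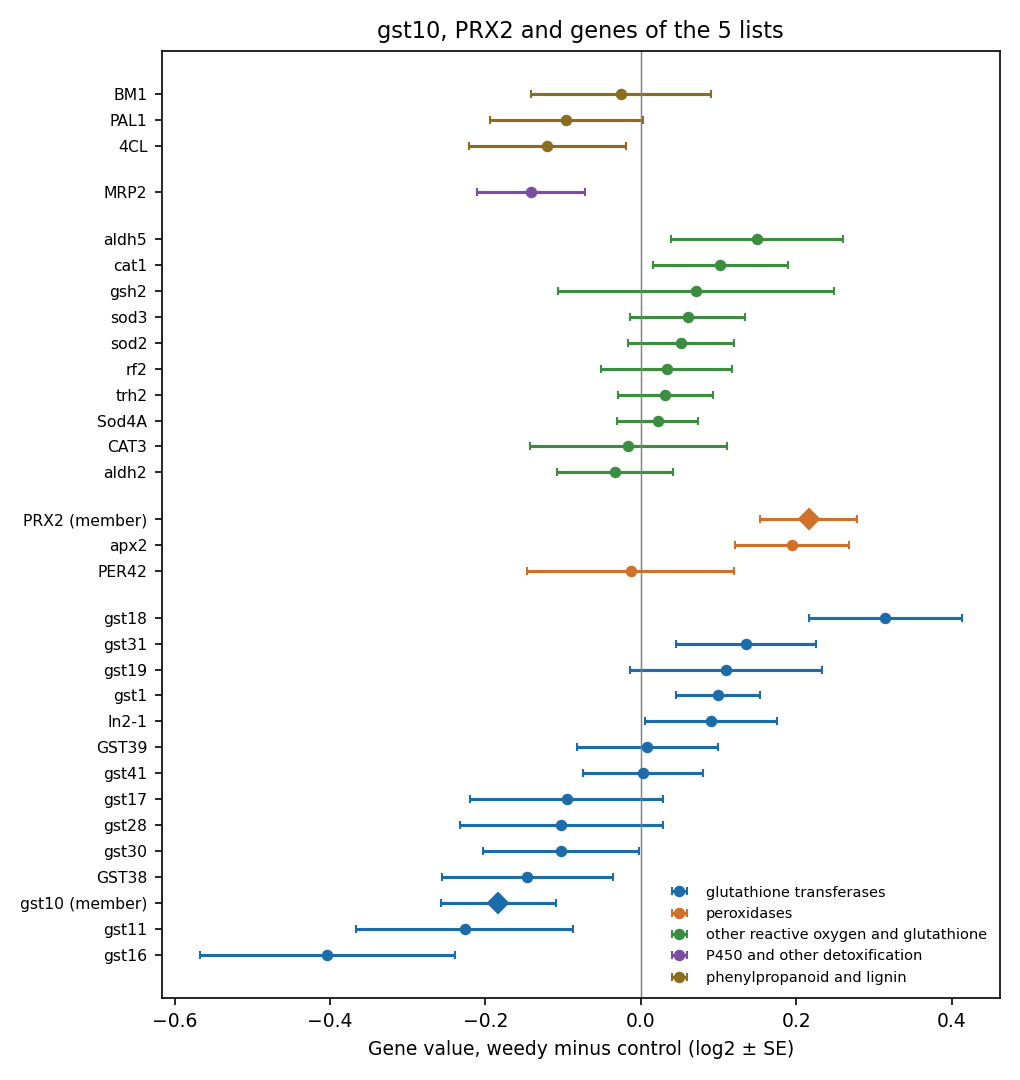
Gene value of the treatment term (weedy minus control on the Cy5 over Cy3 reading, log2 ± SE) for gst10 and PRX2 (diamonds) and the 29 tested genes of the 5 lists (circles), coloured by list. gst10 at -0.18 and PRX2 at 0.22 lie within the range of the listed genes, from -0.40 for gst16 to 0.31 for gst18.

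By turned gene value over the 10 arrays, the genes most like gst10 were the profilin PRO4 (LOC541662, r = 0.84), RGP (LOC542592, r = 0.83), aprl6 (LOC606422, r = 0.80) and the sucrose synthase sh1 (LOC542365, r = 0.79), among 393 genes with a value on every array and a median r of 0.0011. Those most like PRX2 were the protein kinase mpk6 (LOC542143, r = 0.87), the DNA methyltransferase met1 (LOC542082, r = 0.87), the glutathione transferase gst31 (LOC541842, r = 0.84) and abcf1 (LOC542517, r = 0.83), with a median r of -0.04. Their treatment ratios ran from -0.12 for RGP to 0.14 for gst31, and PRO4, at 0.12, had the opposite sign to gst10. The arrays share pools, so these correlations carry no p. Without turning, the most similar genes were others, headed by zmm24 (LOC542038, r = 0.87) for gst10 and gst1 (LOC542366, r = 0.85) for PRX2. On array 5 with control RNA in Cy5 each gene value came from 1 element only, so that point does not weigh like the others. gst10 and PRX2 correlated with each other at -0.62 over the 10 arrays.

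Across 30 other settings, element 8057 had a treatment ratio below 0 and element 4264 one above 0 in all 30. These settings reuse the same arrays, and some, such as a minimum of 2 arrays per orientation, could not change either ratio. Since this contrast chose the genes, the signs are described only. The range was -0.63 to -0.07 for element 8057 and 0.20 to 0.53 for element 4264, with the value nearest 0 in each case from the reading of arrays turned before deposit. With 1 array or plot left out, the range was -0.63 to -0.39 and 0.36 to 0.53. The gene values did not hold in the same way: with elements required on all 10 arrays, which left 12403 for gst10 and 3929 for PRX2, they were 0.0085 and 0.02. When arrays 3 and 5 with control RNA in Cy5, both with control plot 4, had their sign turned, the ratios were -0.56 for element 8057 and 0.47 for element 4264, neither of which had a value on array 5.

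**Figure D4:**
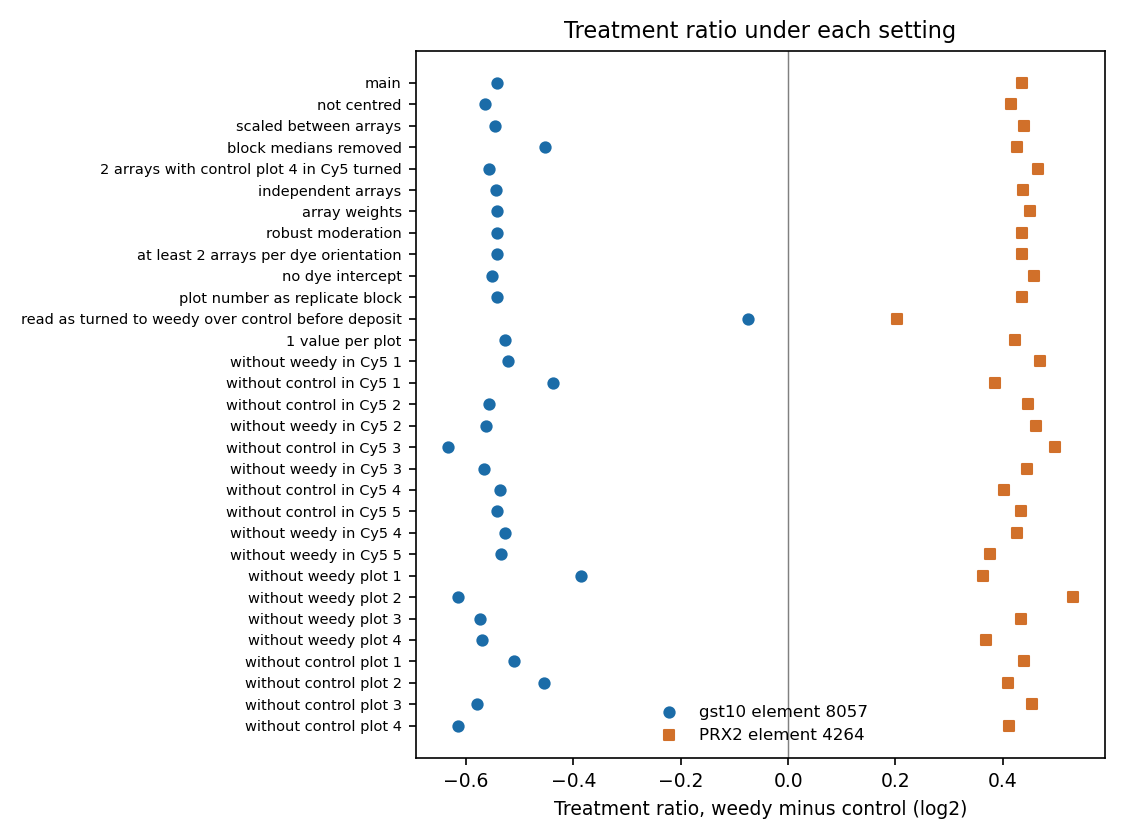
Treatment ratio (log2, weedy minus control) of gst10 element 8057 (circles) and PRX2 element 4264 (squares) under the main setting and 30 others. Points stay between -0.63 and -0.39 and between 0.36 and 0.53, except on the reading of arrays turned before deposit, at -0.07 and 0.20.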

How the data were processed

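Leaf RNA of 8 plot pools was compared on 10 arrays of 2 colours. The authors deposited 1 log ratio per element and array, read here as log2; the labels state neither log base, numerator channel, normalization nor scanner steps, and natural logs cannot be told apart from log2. If the logs are natural, folds change and tests do not. Depth is unknown without signals, so the number of arrays limits precision.

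Members, lists and named-gene rules were chosen with earlier results of these data known. Values were centred on array medians. The 16201 elements with 4 or more values per orientation entered a generalised least squares fit of treatment, a dye intercept and plots as a random effect (variance ratio 0.0347, by restricted likelihood over complete elements), moderated with limma 3.58.1 in R 4.3.3, with Benjamini-Hochberg adjustment over all elements. Genes (540) were means of their tested elements, without MNB1b, a symbol on 230 elements. RefSeq names matched 562 of 583 genes. The lists of related genes were matched by symbol. Named were every member element, the 4 most similar genes, and up to 4 genes of smallest p per list, besides others of the lists given for context. Fits were tested on simulated data, where the treatment term called 30 of 67 elements changed by 0.5 and 65 of 67 changed by 1. Whether the plot numbers pair plots could not be decided, so the block stayed an alternative. Leaving out arrays or plots, other scalings, filters and readings were the remaining alternatives.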

Additional observations from a re-analysis of the deposited data

How the results depend on the processing

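The count of 2 elements past the threshold for the treatment term was 1 after scaling, 6 with array weights, and 0 with 1 value per plot, with the 2 arrays turned, or on the reading of arrays turned before deposit, with a range of 0 to 4 when 1 array or plot was left out (4 without array 1 with control RNA in Cy5, 0 without weedy plot 3 or control plot 4). For the dye term 0 became 3 on that reading and lay between 0 and 3 with 1 left out. For plots of 1 treatment 0 became at most 2 (range 0 to 2). For genes 0 became 2 with array weights, 1 with plot number taken as replicate block, and lay between 0 and 1 with 1 left out (1 without weedy plot 2); 0 of the pathway genes passed in any of 31 settings.

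With elements on all 10 arrays only, which leaves 1 element per gene, the PRX2 ratio was 0.0204 and the dye terms were 0.0370 for gst10 and -0.0189 for PRX2. The gst10 dye term ran from -0.0987 to 0.0615 with 1 left out. Dye terms of single elements changed sign near 0: element 11390 was -0.0255 with block medians removed, -0.0034 with the 2 arrays turned and -0.103 on the other reading (left out, -0.0210 to 0.0861). Element 3929 was 0.0020 and 0.0180 under the first and last of these (left out, -0.0601 to 0.0149). Left out, element 12403 ran from -0.0156 to 0.116 and element 8057 from -0.199 to 0.0355. No member's dye term passed in these settings, apart from the reading of arrays turned before deposit, for which no test is given. The cause of the changes of sign was not tested. On the reading of arrays turned before deposit, the dye terms of elements 11390 and 3929 were -0.103 and 0.0180. Those values are the treatment contrast of the first reading under another name.

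Deviations of same-numbered plots correlated at -0.51, 0.12, -0.61 and 0.21. The pools share arrays, so these deviations are not independent and cannot decide whether the plot numbers pair the pools. With the replicate block the gene values were -0.19 for gst10 and 0.23 for PRX2. One value per plot gives no dye term. The table holds no signal values, so a filter on dim spots could not be run.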
